A study of Arabidopsis thaliana with 28 samples.

Results

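The genes described here are the plastid-encoded genes of photosynthesis and of the plastid NADH dehydrogenase-like (NDH) complex in Arabidopsis thaliana, followed in roots and shoots after a short drying treatment. They were taken as every probe set that the platform annotation pairs with exactly 1 plastid-genome gene whose symbol starts with psa, psb, pet, atp or ndh, or is rbcL. This gave 43 genes, each with 1 probe set, among the 13356 distinct genes that the array's probe sets with 1 gene name. They are 15 genes of photosystem II (psb), 5 of photosystem I (psa), 6 of the cytochrome b6f complex (pet), 6 of the ATP synthase (atp), 10 of the NDH complex (ndh) and rbcL, the large subunit of Rubisco. The gene table holds 44 such symbols, and ndhB, whose probe set is paired with both of its inverted-repeat copies, falls outside the rule. All 43 genes passed the filter on low signals, 40 of them in all 14 groups. ndhF passed in only 1 of the 7 root groups, and 2 other genes passed in 6 of the 7.

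The plastid genome encodes the core subunits of the photosynthetic complexes, while the nucleus encodes most peripheral subunits, the light-harvesting proteins and the small subunit of Rubisco. Most plastid genes are transcribed together with their neighbours in long units that are then processed, and transcript levels depend on a plastid-encoded RNA polymerase with nuclear sigma factors, on a nuclear phage-type polymerase, and on RNA stability. In leaves these transcripts are among the most abundant in the cell, whereas root plastids are mostly not photosynthetic. The NDH complex passes electrons around photosystem I and is known for a protective role under stress.

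The samples were roots and shoots of Col-0 plants (stock N1092) grown on Murashige and Skoog medium in 16 h days. Per the labels, plants at day 16 lost 10% of their fresh weight during 15 min in dry moving air, which began after 3 h of light that day, and were afterwards held in closed vessels. Each tissue was taken at 0.25, 0.5, 1, 3, 6, 12 and 24 h, with 2 arrays per tissue and time, so 14 groups and 28 ATH1 arrays were available. No untreated arrays were analysed here, so all groups share the drying treatment and each later time was compared with 0.25 h of the same tissue. Whether the paired arrays of a group stem from separate cultures is not stated in the labels, so the p-values reflect the spread between these arrays alone, and that spread may be technical. Time after drying and time of day moved together and cannot be told apart, except that 24 h fell near the clock time of 0.25 h.

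The values are deposited array signals without unit, scaled by the authors to a common level on each array, and their precision is limited by how many arrays there were. Changes below are log2 differences of (signal + 1.93) each with its standard error (SE) from the limma fit, and a gene was called where its adjusted p, over 18190 tested probe sets, lay under 0.05. Median signals were 43.1 to 46.7 on the root arrays and 36.6 to 40.3 on the shoot arrays, and replicate arrays correlated at 0.976 to 0.985 in 12 groups. In shoots at 0.5 h and 1 h they correlated at only 0.953 and 0.955, and each of these 4 arrays was closest to an array of the other time (0.982), so shoot values at these times are also given with the 4 arrays pooled or left out where that matters. The 4 measured shoot markers (LHCB4.1, PRK, RCA and SBPASE, of 16 listed) were all lower in roots, by a median of -6.33, and the only measured root marker of 14 listed, the root-hair expansin EXPA7, was higher in roots by 2.15. The summed signal of the shoot markers was 189 to 579.9 on the root arrays and 15510 to 22190 on the shoot arrays.

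All 43 genes were lower in roots than in shoots over the 7 times, with a median difference of -3.28, a 9.69-fold lower level. Across all tested probe sets 31.6% were lower and 55.4% higher in roots, and the median difference was 0.29 (0.15 with quantile normalization). The summed signal of the 43 genes was 9433 to 17050 on the root arrays and 79400 to 102300 on the shoot arrays. Every root array lay below every shoot array for 41 of the 43 genes, against 15% of all probe sets tested. Since these are bulk samples, fewer cells with green plastids and less plastid RNA per cell cannot be told apart.

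The size of the root-shoot gap varied widely among the genes. ndhJ, a subunit of the peripheral arm of the NDH complex, had a lowest, median and highest signal of 12.5, 21.48 and 35.79 on the 14 root arrays, against 855.1, 1144 and 1672 on the 14 shoot arrays. Its difference of -5.64 ± 0.11 was the largest of the 43 (adjusted p = 3.2e-20), and the arrays of the 2 tissues lay far apart. psbA and psbD encode D1 and D2, the reaction centre pair of photosystem II, and had the next largest differences.

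For psbA the signals ranged from 38.34 to 110.7 with a median of 62.86 in roots, against 1190 to 3207 with a median of 2358 in shoots, a difference of -5.16 ± 0.10 (adjusted p = 5.7e-20). For psbD they ranged from 47.24 to 133.7 with a median of 76.94 in roots, against 1094 to 3339 with a median of 2644 in shoots, a difference of -4.90 ± 0.08 (adjusted p = 5.1e-21). Among genes whose root signals passed the filter in at least 6 of the 7 root groups, the smallest gaps were those of petN and psaB. petN, a small subunit of the cytochrome b6f complex, had 31.35 to 153.8 in roots and 77.3 to 246.7 in shoots (-1.35 ± 0.13, adjusted p = 8.7e-09), and its tissues overlapped. ndhF, a membrane subunit of the NDH complex, had 7.066 to 31.12 with a median of 9.951 in roots, against 21.52 to 69 with a median of 43.38 in shoots. Its root signals passed the filter in only 1 of the 7 root groups, so the fitted difference of -1.71, which was -1.14 with a larger pseudocount, does not measure its gap and is left out of the order. psaB, a reaction centre protein of photosystem I, had 1144 to 2247 in roots and 4702 to 7088 in shoots (-1.71 ± 0.05, adjusted p = 3.8e-17), with no overlap, and -0.97 with quantile normalization.

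**Figure D1:**
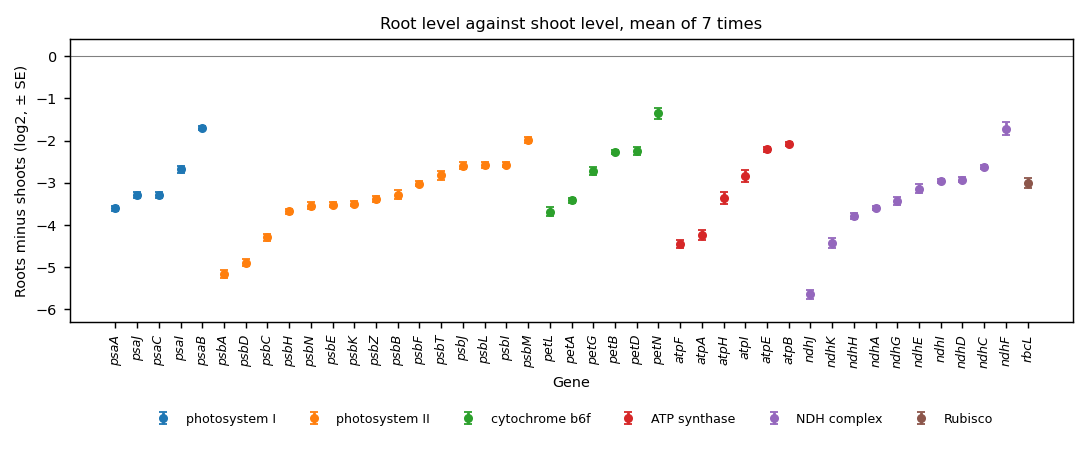
Difference between roots and shoots for each of the 43 genes, as the mean of the 7 root groups minus the mean of the 7 shoot groups on the log2 scale (points) with its SE (bars), grouped by complex and ordered by size. All points lie below 0, from -5.64 for ndhJ to -1.35 for petN, and the point of ndhF rests on root signals that passed the low-signal filter in 1 of 7 root groups.

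The nuclear genes listed for photosynthesis were lower in roots as well. The 10 measured nuclear photosynthesis genes, of 59 listed, were all lower in roots, with differences of -6.95 to -4.73 and a median of -5.63, a range that overlaps that of the 43 genes. The 26 other plastid-encoded genes, among them those for ribosomal proteins and RNA polymerase, were also all lower in roots, with a median of -2.28. By complex, the medians of the 43 genes were -3.38 for photosystem II, -3.28 for photosystem I, -2.50 for cytochrome b6f, -3.10 for ATP synthase and -3.29 for NDH, and rbcL had -3.0 ± 0.13. Differences between these medians were not tested.

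In roots, the transcripts of 18 of the 43 genes rose by 1 h after drying, fewer were higher at later times, and at 24 h the median change was negative. The time course passed limma's F test for 30 of 43 genes (69.8%), against 27.6% of all probe sets tested. Against 0.25 h, 6 genes rose at 0.5 h (2.13% of all probe sets rose), 18 at 1 h (3.48%), 6 at 3 h (1.75%), 10 at 6 h (5.32%), 2 at 12 h (3.62%) and 0 at 24 h (0.5%). None of the 43 fell at 0.5 to 12 h, where 2.68%, 3.36%, 1.83%, 5.01% and 4.26% of all probe sets fell. At 24 h 2 genes fell (1.71%). The median changes of the 43 genes were 0.34, 0.65, 0.51, 0.42, 0.22 and -0.22 at 0.5, 1, 3, 6, 12 and 24 h, while the medians over all probe sets tested lay between -0.06 and 0.03. All 6 contrasts share the 2 arrays of 0.25 h, so these counts are not separate evidence.

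At 1 h both arrays lay above both 0.25 h arrays for 35 of the 43 genes, against 22.5% of all probe sets. The highest of the 7 group means was at 1 h for 23 of the 43 genes (53.5%, against 11.5% of all probe sets), and the lowest was at 24 h for 26 (60.5%, against 9.87%). The count at 1 h depends on single arrays: it was 3 without replicate 1 of 0.25 h, 5 without replicate 1 of 1 h and 11 without replicate 2 of 1 h. The median change in the same fits stayed between 0.47 and 0.76. Without replicate 1 of 0.25 h the count was 0 at 0.5 h, 1 at 3 h and 2 at 6 h. At 0.5 h it was 1 without replicate 1 and 2 without replicate 2 of that time, at 3 h 2 without replicate 1 and 3 without replicate 2, and at 6 h 1 without replicate 2.

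**Figure D2:**
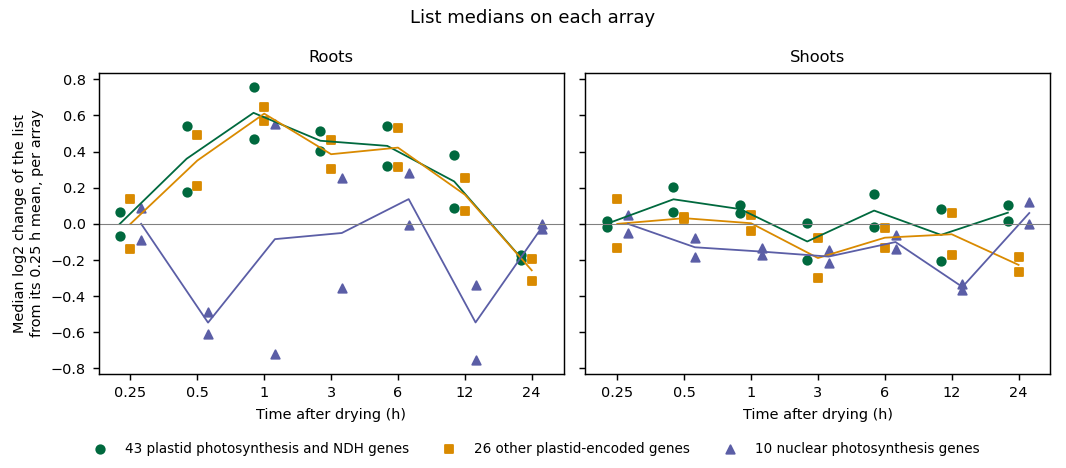
Median log2 change of a gene list on each array from the list's 0.25 h means (y axis) against time after drying (x axis), for roots (left) and shoots (right), with lines through the means of the 2 arrays. In roots the 43 genes (circles) and 26 other plastid genes (squares) are highest at 1 h, where the 43 genes had medians of 0.76 and 0.47, while the 10 nuclear photosynthesis genes (triangles) lie apart from each other at 0.55 and -0.72.

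The other plastid-encoded genes moved with the photosynthesis genes in roots, and the nuclear photosynthesis genes did not pass the test at any time. Of the 26 other plastid-encoded genes, 12 rose at 1 h with a median change of 0.64, and 18 passed the root F test. Of the 10 nuclear photosynthesis genes, 0 were called in any root contrast and 0 passed the F test. At the 6 later times 3, 0, 0, 1, 5 and 0 of these genes had an unadjusted limma p under 0.05, a share not counted over all probe sets. Their median changes at these times were -0.55, -0.07, -0.04, 0.16, -0.49 and -0.01. Markers of green tissue differed between the 2 root arrays of 1 h: the shoot markers summed to 579.9 on replicate 1, the highest of the root arrays, and to 222.8 on replicate 2. On replicate 1 the median change of the 43 genes was 0.76 and that of the nuclear list 0.55, and on replicate 2 they were 0.47 and -0.72, with 40 of 43 genes above their 0.25 h means. The part of green tissue in the root values of replicate 1 was not tested.

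In photosystem II 9 of 15 genes rose in roots at 1 h, with a median change of 0.69, and all 15 had both arrays above both 0.25 h arrays. The F test called 12 of the 15. psbK encodes a small subunit, and its root signals were 230.2 and 227.8 at 0.25 h, 430.3 and 307.8 at 0.5 h, 516.6 and 424.5 at 1 h, 413.4 and 389.2 at 3 h, 331.6 and 424.3 at 6 h, 348.6 and 295.2 at 12 h, and 181.4 and 174.3 at 24 h. Both arrays of each time from 0.5 h to 12 h lay above those of 0.25 h, and both of 24 h lay below. The change was 1.03 ± 0.15 at 1 h, a 2.04-fold rise (adjusted p = 0.00031), and it stayed past the threshold in each of the 28 fits with 1 array left out (adjusted p up to 0.0061). At 3 h it was 0.80 ± 0.15 (adjusted p = 0.0026).

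psbC encodes CP43, an inner antenna protein of photosystem II, and psbD, which encodes D2, lies beside it in the same transcription unit. psbC had 133.6 and 158.2 at 0.25 h, 310.3 and 249.6 at 0.5 h, 341.3 and 295 at 1 h, 307.7 and 161.7 at 3 h, 135.4 and 164.4 at 6 h, 145 and 112.5 at 12 h, and 106 and 112.5 at 24 h. psbD had 59.01 and 62.1 at 0.25 h, 114.9 and 100.4 at 0.5 h, 133.7 and 110 at 1 h, 124.6 and 84.19 at 3 h, 61.23 and 89.03 at 6 h, 69.68 and 51.67 at 12 h, and 47.24 and 47.53 at 24 h. Both genes lay above their 0.25 h arrays from 0.5 h to 3 h and overlapped with them at 6 h and 12 h. For psbC at 3 h the margin was small on replicate 2, 161.7 against 158.2. psbC rose by 0.93 ± 0.22 (adjusted p = 0.02) at 0.5 h and 1.12 ± 0.22 (adjusted p = 0.0047) at 1 h. psbD rose by 0.81 ± 0.21 (adjusted p = 0.037) at 0.5 h and 0.98 ± 0.21 (adjusted p = 0.0095) at 1 h. Without replicate 1 of 0.25 h neither passed at 1 h (adjusted p = 0.075 for psbC and 0.089 for psbD), and psbD did not pass without replicate 1 of 1 h (0.078).

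psbN is needed for photosystem II assembly and is transcribed from the strand opposite the psbB unit in which it lies. Its root signals were low, 17.33 and 16.39 at 0.25 h, 27.71 and 25.6 at 0.5 h, 43.6 and 41.32 at 1 h, 30.21 and 20.32 at 3 h, 19.8 and 26.32 at 6 h, 22.71 and 24.27 at 12 h, and 18.48 and 20.33 at 24 h. The 1 h arrays stood above all other root arrays. The change at 1 h was 1.24 ± 0.22 (adjusted p = 0.0023), and it was past the threshold with each array left out (adjusted p up to 0.025). psbT, a small subunit gene of the psbB unit, had 129.8 and 89.99 at 1 h, against 51.35 and 48.4 at 0.25 h, a rise of 1.09 ± 0.27 (adjusted p = 0.022). psbT was not past the threshold without either 0.25 h array (adjusted p = 0.11 and 0.095) or without replicate 1 of 1 h (0.17).

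psbM, another small subunit gene and the photosystem II gene with the highest mean signal in shoots, was highest in roots at 12 h instead. It had 928.3 and 788.1 at 0.25 h, 1153 and 1020 at 0.5 h, 1373 and 1342 at 1 h, 1317 and 1134 at 3 h, 1268 and 1087 at 6 h, 1641 and 1492 at 12 h, and 1090 and 1035 at 24 h. Every later array lay above both 0.25 h arrays. It rose by 0.67 ± 0.18 (adjusted p = 0.033) at 1 h and 0.87 ± 0.18 (adjusted p = 0.0051) at 12 h, and the call at 12 h did not hold without replicate 2 of 0.25 h (adjusted p = 0.062). psbA, which encodes the fast-turning D1 protein, had 110.7 and 77.84 at 1 h, against 64.98 and 49.5 at 0.25 h. Its arrays at the 2 times did not overlap, but its root time course did not pass the F test (adjusted p = 0.12).

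Of the 6 cytochrome b6f genes, 4 rose in roots at 1 h and 5 passed the F test. petD encodes subunit IV of the complex and had 15.13 and 18.69 at 0.25 h, 29.89 and 17.36 at 0.5 h, 33.51 and 37.78 at 1 h, 27.91 and 26.85 at 3 h, 18.95 and 29.77 at 6 h, 26.22 and 18.04 at 12 h, and 16 and 14.6 at 24 h. The 1 h and 3 h arrays lay above those of 0.25 h, while the pairs of 0.5, 6 and 12 h each held an array close to the 0.25 h level. The change at 1 h was 1.0 ± 0.25 (adjusted p = 0.019), and it was not past the threshold without replicate 1 of 0.25 h (adjusted p = 0.19) or without replicate 1 or 2 of 1 h (0.052 and 0.15).

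petG and petL encode small subunits and lie next to each other. petG had 60.28 and 56.25 at 1 h, against 32.39 and 24.14 at 0.25 h, a rise of 1.01 ± 0.26 (adjusted p = 0.025) that was not past the threshold with any of these 4 arrays left out (adjusted p = 0.063 to 0.17). petL had 157 and 86.12 at 1 h, against 52.66 and 62.03 at 0.25 h, a rise of 1.0 ± 0.29 (adjusted p = 0.047). petL lost its call in 13 of the 28 fits with 1 array left out, without a pseudocount (adjusted p = 0.051), without the filter (0.058) and with only the root arrays fitted (0.075), and its change was 0.58 (adjusted p = 0.38) without replicate 1 of 1 h. petA, which encodes cytochrome f, rose by 0.65 ± 0.14 (adjusted p = 0.01) at 0.5 h and by 0.54 ± 0.14 (adjusted p = 0.025) at 1 h. petB, which encodes cytochrome b6, rose at 6 h by 0.53 ± 0.14 (adjusted p = 0.018).

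petN was the exception among the cytochrome b6f genes. Its root signals were 60.36 and 56.74 at 1 h, both below the 93.67 and 67.6 of 0.25 h, and it was the only one of the 43 genes with a negative change at 1 h, -0.43 ± 0.35, which did not pass the test. At 24 h it had 153.8 and 79.89, an increase of 0.47 ± 0.35 that did not pass either. Its root time course did not pass the F test (adjusted p = 0.079).

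The largest root change of all 43 genes was that of atpH, which encodes the ring-forming subunit of the ATP synthase. Its root signals were 111.2 and 67.39 at 0.25 h, 223.5 and 187.5 at 0.5 h, 346.9 and 329.5 at 1 h, 313.5 and 224.4 at 3 h, 197.3 and 496 at 6 h, 351.8 and 130.3 at 12 h, and 122.4 and 85.43 at 24 h. All arrays from 0.5 h to 12 h lay above both 0.25 h arrays, but replicates at 6 h and 12 h were more than 2 times apart. It rose by 1.94 ± 0.40 (adjusted p = 0.0059) at 1 h, 3.84-fold, by 1.59 ± 0.40 (adjusted p = 0.028) at 3 h and by 1.83 ± 0.40 (adjusted p = 0.005) at 6 h. Without replicate 2 of 0.25 h the change at 1 h was 1.59 (adjusted p = 0.067).

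Of the other 5 ATP synthase genes, none was called against 0.25 h, although 5 of the 6 passed the root F test and all 6 had positive changes at 0.5 to 6 h. Examples are atpA, the alpha subunit, with 0.94 ± 0.30 (adjusted p = 0.078) at 0.5 h, and atpB, the beta subunit, whose root arrays ranged from 897.1 to 1756. In photosystem I, psaA was called at 3 times and psaB, psaC, psaI and psaJ at none. psaA, which encodes a reaction centre protein, had 275 and 355.2 at 0.25 h, 480.7 and 401.9 at 0.5 h, 524.7 and 427.3 at 1 h, 504.2 and 600.3 at 3 h, 446.3 and 439.7 at 6 h, 349.8 and 442.5 at 12 h, and 157.6 and 228.4 at 24 h. The arrays from 0.5 h to 6 h lay above those of 0.25 h, and both arrays of 24 h lay below all others. It rose by 0.60 ± 0.17 (adjusted p = 0.041) at 1 h and 0.81 ± 0.17 (adjusted p = 0.0092) at 3 h, and the call at 3 h did not hold without replicate 1 of 0.25 h or replicate 2 of 3 h (adjusted p = 0.2 and 0.12).

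Among the 10 NDH genes, 3 rose in roots at 1 h and 5 at 6 h, and 5 passed the F test. ndhA, a membrane subunit, had the smallest F-test p of the 43 genes (adjusted p = 7.4e-06). Its root signals were 123.7 and 160.6 at 0.25 h, 233.7 and 174 at 0.5 h, 269.7 and 229.1 at 1 h, 201.1 and 213.5 at 3 h, 212 and 211.4 at 6 h, 163.3 and 149 at 12 h, and 89.45 and 93.48 at 24 h. The signals lay above 0.25 h from 0.5 h to 6 h, overlapped with it at 12 h and were lowest at 24 h. The change was 0.81 ± 0.14 (adjusted p = 0.0018) at 1 h, and 0.62 (adjusted p = 0.05) without replicate 1 of 0.25 h.

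ndhI and ndhD lie in the same unit as ndhA, ndhI in the peripheral arm of the complex and ndhD in the membrane arm, and both were highest at 6 h. ndhI, the NDH gene with the highest mean signal in shoots, had 648.8 and 686.7 at 6 h, against 369.1 and 459.5 at 0.25 h, a rise of 0.69 ± 0.14 (adjusted p = 0.0024). ndhD had 542.5 and 649.9 at 6 h, against 364.2 and 395.6 at 0.25 h, a rise of 0.64 ± 0.13 (adjusted p = 0.0039). Neither pair of times overlapped, and neither call held without replicate 1 of 0.25 h (adjusted p = 0.064 for ndhI and 0.056 for ndhD), nor did that of ndhD without replicate 2 of 6 h (0.077). ndhH, at the start of the unit and in the peripheral arm, had 36.97 and 33.3 at 3 h, against 18 and 19.94 at 0.25 h, a rise of 0.83 ± 0.19 (adjusted p = 0.018). The call of ndhH was lost without replicate 1 of 0.25 h (adjusted p = 0.18), without replicate 1 or 2 of 3 h (0.12 and 0.068), or with only the root arrays fitted (0.06). ndhJ, ndhK and ndhC, which form a separate unit, were not called at any root time and did not pass the F test.

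rbcL had 74.43 and 72.97 in roots at 1 h, against 49.66 and 71.58 at 0.25 h, a change of 0.30 ± 0.33 that did not pass the test, and its root time course did not pass the F test (adjusted p = 0.15).

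At 24 h, 30 of the 43 genes had negative root changes, while 54.3% of all probe sets tested had positive ones. Of these 30 genes, 2 fell. psaA fell by 0.71 ± 0.17 on the log2 scale (adjusted p = 0.029) and ndhA by 0.61 ± 0.14 (adjusted p = 0.02). Neither call held without replicate 2 of 0.25 h (adjusted p = 0.27 and 0.24) or without replicate 1 of 24 h (0.45 and 0.17), and psaA's change was then -0.45. That of ndhA also did not hold without replicate 2 of 24 h (0.086). With only the 14 root arrays in the fit 0 genes were called at 24 h. In photosystem I all 5 genes had negative changes at 24 h, with a median of -0.40, and 4 of the 5 had both arrays below both 0.25 h arrays (20.3% of all probe sets). This was not particular to photosystem I. Genes of the other groups, among them psbK, psbC, psbD, petB, atpB, ndhA and rbcL, also had both 24 h arrays below both 0.25 h arrays.

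**Figure D3:**
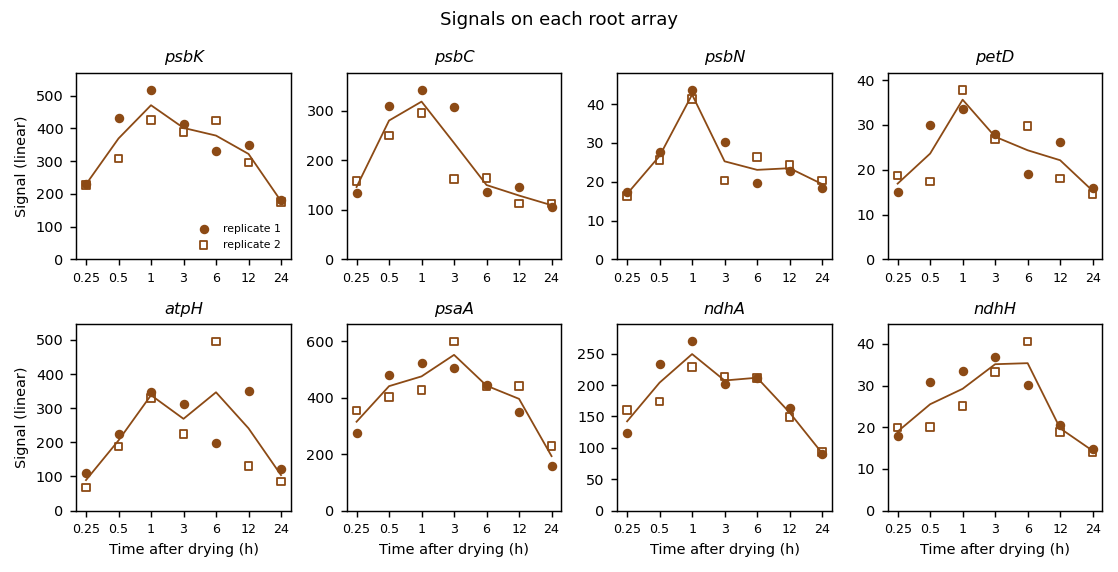
Signals of 8 genes on each of the 14 root arrays (linear scale, y axis from 0) against time after drying in h, with filled circles for replicate 1, open squares for replicate 2 and a line through the group means. psbK, psbC, psbN, petD and ndhA have their highest mean at 1 h, atpH is 2 or more times its 0.25 h mean from 0.5 to 12 h with wide replicate gaps at 6 h and 12 h, and psaA and ndhH have later maxima.

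**Figure D4:**
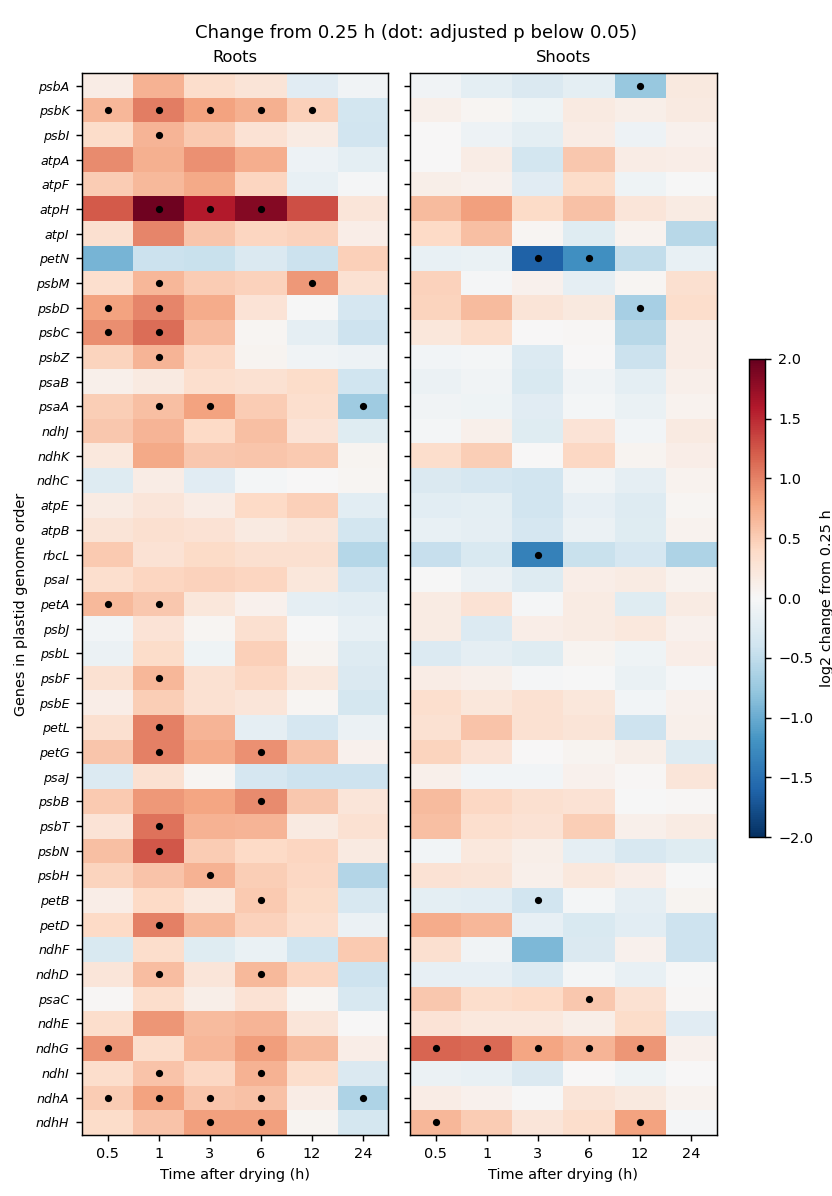
log2 change from 0.25 h of each of the 43 genes in plastid genome order (top to bottom) at the 6 later times, in roots (left) and shoots (right), with a dot where the adjusted p lies under 0.05. Roots are mostly positive from 0.5 to 6 h, with 18 dots at 1 h. Shoots have smaller changes for most genes and few dots, among them those of petN, rbcL, ndhG and ndhH.

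In shoots, the levels of most of the 43 genes moved little. The F test called 8 of 43 (18.6%), against 50.4% of all probe sets tested, and the median changes were 0.15, 0.08, -0.06, 0.09, -0.08 and 0.07 at 0.5, 1, 3, 6, 12 and 24 h. The genes past the F test were psbD, petD, petN, ndhG, ndhH, psbC, petA and rbcL. Against 0.25 h, 2 genes rose at 0.5 h (5.09% of all probe sets rose), 1 at 1 h (5.17%), 1 at 3 h (14.9%), 2 at 6 h (17.7%), 2 at 12 h (14.7%) and 0 at 24 h (5.39%). None fell at 0.5 h (2.85%) or 1 h (3.13%), 3 fell at 3 h (13.9%), 1 at 6 h (15.8%), 2 at 12 h (11.7%) and 0 at 24 h (5.63%). At 24 h none of the 43 had an unadjusted limma p under 0.05, in 28 fits with 1 array left out 0 were called, and each alternative gave 0 as well. The F test count was 5 when both the 0.5 h and the 1 h shoot pairs were dropped, without replicate 2 of 1 h or without either root array of 24 h, and 14 with only the shoot arrays fitted. The main fit takes 1 spread per probe set from the arrays of both tissues. The percentage of all probe sets that passed in the fit of only the shoot arrays is not given here.

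At 3 h the shoot means of 19 of the 43 genes were at their lowest of the 7 times (44.2%, against 15.5% of all probe sets), but only petN, rbcL and petB fell. petN had 246.7 and 242.1 at 0.25 h, 216.2 and 224.7 at 0.5 h, 232.4 and 214.5 at 1 h, 78.79 and 77.3 at 3 h, 98.34 and 107.4 at 6 h, 201.3 and 148.4 at 12 h, and 232.7 and 210.2 at 24 h. The arrays of 3 h and 6 h stood apart from all others, and the change at 24 h was -0.14 ± 0.35 (adjusted p = 0.85). petN fell by 1.62 ± 0.35 (adjusted p = 0.0015) at 3 h, 3.08-fold, and by 1.23 ± 0.35 (adjusted p = 0.0095) at 6 h. The call at 3 h held with each array left out (adjusted p up to 0.015), while that at 6 h did not hold without replicate 1 of 0.25 h or of 6 h (0.05 and 0.057).

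rbcL had 828.5 and 753.6 at 0.25 h, 869.7 and 381.1 at 0.5 h, 581.6 and 708.6 at 1 h, 342.1 and 280.1 at 3 h, 574.7 and 585.9 at 6 h, 821.5 and 478.3 at 12 h, and 423 and 623.3 at 24 h. The 3 h arrays were the lowest of the 14, and the replicates of 0.5 h and 12 h lay far apart. rbcL fell by 1.35 ± 0.33 (adjusted p = 0.0046) at 3 h, and without replicate 2 of 3 h the change was -1.20 (adjusted p = 0.051). petB, the cytochrome b6f gene with the highest mean shoot signal, fell by a smaller 0.38 ± 0.14 (adjusted p = 0.044) at 3 h, and its shoot time course did not pass the F test (adjusted p = 0.12). Of the nuclear shoot markers, SBPASE, an enzyme of the Calvin cycle, also fell at 3 h, by 0.71 ± 0.25 (adjusted p = 0.04), and the 4 markers had a median change of -0.37.

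The rises in shoots were those of ndhG and ndhH, and of psaC at 6 h (0.55 ± 0.19, adjusted p = 0.032), which lie in the same transcription unit of NDH genes. psaC did not pass the shoot F test (adjusted p = 0.071). ndhG, a membrane subunit, had 298.8 and 305.5 at 0.25 h, 633.8 and 733.2 at 0.5 h, 728.8 and 599.6 at 1 h, 532.9 and 509.5 at 3 h, 461.3 and 509.5 at 6 h, 672.9 and 465 at 12 h, and 326.3 and 315 at 24 h. Every array from 0.5 h to 12 h lay well above both 0.25 h arrays, and those of 24 h were close to them. Its changes were 1.17 ± 0.26 at 0.5 h (2.25-fold, adjusted p = 0.0084), 1.13 ± 0.26 (adjusted p = 0.011) at 1 h, 0.78 ± 0.26 (adjusted p = 0.028) at 3 h, 0.68 ± 0.26 (adjusted p = 0.048) at 6 h and 0.89 ± 0.26 (adjusted p = 0.015) at 12 h. At 0.5 h it was not past the threshold without either 0.25 h array (adjusted p = 0.056 and 0.052) or without replicate 2 of 0.5 h (0.077). At 12 h it was not past it without either 0.25 h array (0.073 and 0.061) or without replicate 1 of 12 h (0.18).

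ndhH had 279.1 and 276 at 0.25 h, 476.3 and 411.1 at 0.5 h, 388 and 402.5 at 1 h, 325.9 and 331.9 at 3 h, 360.1 and 351.2 at 6 h, 597.5 and 395.4 at 12 h, and 273.9 and 273.5 at 24 h. As for ndhG, the arrays of 0.5 h to 12 h lay above those of 0.25 h, and the 24 h arrays were level with them. ndhH rose by 0.67 ± 0.19 (adjusted p = 0.037) at 0.5 h and by 0.80 ± 0.19 (adjusted p = 0.0038) at 12 h, where it was 0.51 (adjusted p = 0.1) without replicate 1 of 12 h. Their neighbours ndhA, ndhI and ndhD were not called in shoots at any time, and their shoot means spanned 0.25 (ndhA), 0.30 (ndhI) and 0.28 (ndhD) on the log2 scale.

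At 12 h the transcripts for D1 and D2 of photosystem II were lower in shoots. psbA had 2076 and 1190 at 12 h, against 2688 and 2641 at 0.25 h, and 3207 and 2910 at 24 h. psbD had 2306 and 1910 at 0.25 h, 3106 and 2626 at 0.5 h, 3339 and 3202 at 1 h, 2675 and 2355 at 3 h, 2797 and 2074 at 6 h, 1611 and 1094 at 12 h, and 2661 and 2706 at 24 h. Both 12 h arrays were the lowest of the 14 for each gene, and replicate 2 was the lower of the pair. psbA fell by 0.76 ± 0.26 (adjusted p = 0.04) and psbD by 0.66 ± 0.21 (adjusted p = 0.028). The shoot time course of psbA did not pass the F test (adjusted p = 0.094), while that of psbD did (0.0013). psbC, in the same unit as psbD, had 2547 and 2191 at 12 h, against 3798 and 3170 at 0.25 h, a change of -0.55 ± 0.22 that did not pass the test (adjusted p = 0.07), although it passed with only the shoot arrays fitted (0.02) or without either root array of 3 h (0.017).

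The 12 h falls depended on the scaling and on single arrays. With quantile normalization 2 genes rose and 0 fell at 12 h, in place of 2 and 2, and at 6 h 1 rose and 1 fell in place of 2 and 1. At 12 h the changes were then -0.55 for psbA (adjusted p = 0.13) and -0.49 for psbD (adjusted p = 0.086). Without replicate 2 of 12 h the changes were -0.36 for psbA (adjusted p = 0.45) and -0.38 for psbD (adjusted p = 0.33), and without replicate 1 of 12 h psbA had -1.16. Without replicate 1 of 0.25 h neither was called (0.14 for psbA and 0.19 for psbD), nor was psbA without replicate 2 of 0.25 h (0.12). With only the shoot arrays fitted 2 genes rose and 5 fell at 12 h, and at 3 h 2 rose and 7 fell. Leaving out single arrays also moved the smaller counts: at 0.5 h and 1 h they were 0 without either 0.25 h array, at 3 h 1 without replicate 2 of 3 h and 2 without replicate 1 of 0.25 h, and at 6 h 0 without replicate 1 of 0.25 h. The count at 6 h was 1 without replicate 2 of 0.25 h or without replicate 1 or 2 of 6 h. At 12 h it was 1 without replicate 1 of 0.25 h and 2 without replicate 2 of 0.25 h or without replicate 1 or 2 of 12 h. It was also 0 at 0.5 h without replicate 2 of that time and 0 at 1 h without replicate 1 of that time.

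petD passed the shoot F test (adjusted p = 0.0017) without a call against 0.25 h. Its shoot signals were 97.04 and 127.9 at 0.25 h, 196.6 and 179.2 at 0.5 h, 170.2 and 184.6 at 1 h, 109.3 and 89.48 at 3 h, 77.81 and 103.6 at 6 h, 112 and 81.42 at 12 h, and 83.33 and 82.13 at 24 h. The 4 arrays of 0.5 h and 1 h were the highest of the 14. The change was 0.74 ± 0.25 (adjusted p = 0.07) at 0.5 h, and 0.70 when these 4 arrays were pooled, which passed (adjusted p = 0.029), as it did with the larger pseudocount (0.69, adjusted p = 0.029). petA, the eighth gene past the shoot F test (adjusted p = 0.042), had its largest change at 1 h, 0.29 ± 0.14 (adjusted p = 0.21). atpH, the gene with the largest root change, had shoot signals of 2857 and 2565 at 1 h, against 1345 and 1740 at 0.25 h, with no overlap. Its shoot time course did not pass the F test (adjusted p = 0.47).

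**Figure D5:**
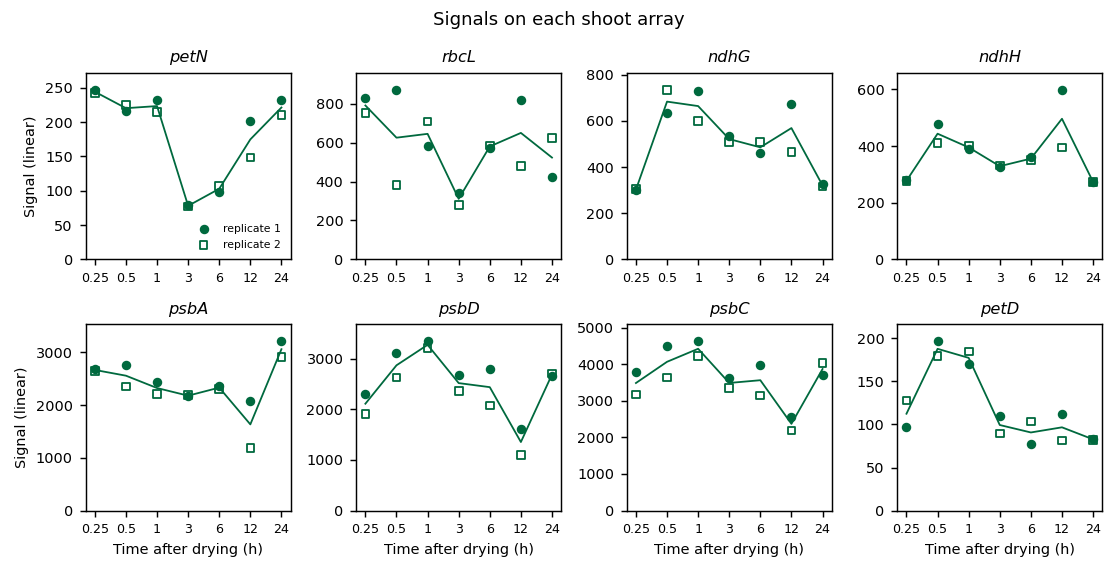
Signals of 8 genes on each of the 14 shoot arrays (linear scale, y axis from 0) against time after drying in h, with filled circles for replicate 1, open squares for replicate 2 and a line through the group means. petN and rbcL are lowest at 3 h, ndhG and ndhH lie above 0.25 h from 0.5 to 12 h, psbA, psbD and psbC are lowest at 12 h, and petD is highest at 0.5 h and 1 h.

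The difference between the tissues' time courses was itself tested. The interaction F test called 20 of the 43 genes (46.5%), against 28.7% of all probe sets tested, and 12 without replicate 2 of shoots at 24 h or 13 without replicate 1 of roots at 24 h. Both tissues' own F tests called 6 genes, and neither called 11. The shares of all probe sets called in both tissues or in neither were not counted. By time, the root change exceeded the shoot change for 0 genes at 0.5 h (0.654% of all probe sets), 3 at 1 h (1.09%), 6 at 3 h (4.96%), 2 at 6 h (7.92%), 4 at 12 h (7.2%) and 0 at 24 h (1.81%). At 6 h this was a smaller share of the 43 genes than of all probe sets, and at 12 h a similar one. No gene was called in the other direction, where 1.46%, 1.89%, 5.92%, 8.94%, 8.61% and 1.41% of all probe sets were, although with quantile normalization 1 was at 24 h. At 0.5 h and 24 h, where limma called 0, 8 and 9 genes had an unadjusted p under 0.05. The share of all probe sets under that unadjusted threshold was not counted, so these counts have no background to be set against. The medians of the root change minus the shoot change were 0.21, 0.55, 0.58, 0.33, 0.34 and -0.28 at the 6 later times.

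psbK at 1 h had 516.6 and 424.5 in roots, against 230.2 and 227.8 at 0.25 h, while its shoot arrays had 3497 and 3533 at 1 h, against 3178 and 3688 at 0.25 h. The root change exceeded the shoot change by 0.99 ± 0.21 (adjusted p = 0.012), a call that did not hold without replicate 2 of shoots at 0.25 h (0.061) or replicate 1 of roots at 1 h (0.053). psaA at 3 h had 4456 and 3911 in shoots, against 4729 and 5088 at 0.25 h, and its root change exceeded this shoot change by 1.05 ± 0.24 (adjusted p = 0.0089). Without replicate 1 of roots at 0.25 h its adjusted p was 0.051. rbcL at 3 h differed by 1.72 ± 0.47 (adjusted p = 0.023), and psbM at 12 h by 0.83 ± 0.26 (adjusted p = 0.033). The call of rbcL did not hold in 5 of 28 fits with 1 array left out, namely without replicate 1 of shoots or of roots at 0.25 h, replicate 2 of shoots at 3 h, or either root array of 3 h (adjusted p = 0.059 to 0.1). That of psbM did not hold in 5 of the 28 (0.058 to 0.15), namely without replicate 2 of shoots or of roots at 0.25 h, replicate 2 of shoots at 12 h or either root array of 12 h. psbM also did not pass with quantile normalization (0.58, adjusted p = 0.11) or with the 4 shoot arrays pooled over the early times (adjusted p = 0.058). atpA and petN had large differences at 3 h that did not pass, 1.29 ± 0.42 (adjusted p = 0.056) and 1.18 ± 0.49 (adjusted p = 0.14). atpA passed without replicate 2 of roots at 0.25 h, either array of shoots at 0.5 h or either array of roots at 12 h (adjusted p = 0.0078 to 0.044). It also passed with the larger pseudocount (0.044), and with the early shoot arrays left out (0.042) or pooled (0.047).

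The counts of the difference rested on few arrays. At 1 h it was 0 without replicate 1 of roots at 1 h, 1 without either shoot array of 0.25 h, replicate 1 of roots at 0.25 h or replicate 1 of shoots at 1 h, and 6 without replicate 2 of roots at 0.25 h. At 3 h it was 1 without replicate 1 of roots at 0.25 h or replicate 2 of shoots at 3 h, 2 without replicate 1 of shoots at 0.25 h, 3 without replicate 2 of roots at 3 h and 13 without replicate 2 of roots at 0.25 h. At 6 h it was 0 without replicate 1 of roots at 0.25 h or replicate 2 of shoots or of roots at 6 h, and 5 without replicate 1 of roots at 6 h. At 12 h it lay between 0 and 4 in the fits with an array left out, and it was 0 without replicate 2 of shoots at 0.25 h or replicate 1 of roots at 12 h. It was 1 without replicate 1 of shoots or of roots at 0.25 h or without either shoot array of 12 h, and 2 without any single shoot array of 3 h or 6 h or root array of 24 h. With quantile normalization it was 3 at 3 h, 1 at 1 h and 0 at 12 h.

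Similarity within transcription units varied from unit to unit, as a description over 7 group means that share arrays. In roots, Pearson's r across the 7 times had a median of 0.84 over the 55 pairs within a unit, against 0.70 over the 848 other pairs. In shoots it was 0.42, against 0.19. The genes psbD, psbC and psbZ had r of 0.96 to 0.98 in roots, psaA and psaB had 0.90 in roots and 0.98 in shoots, and atpB and atpE had 0.99 in shoots. Other units lay below the other pairs: ndhC, ndhK and ndhJ had a median r of 0.17 and petL, petG and psaJ one of 0.49 in roots, and in shoots the medians were -0.26 for psbE, psbF, psbL and psbJ and -0.19 for petL, petG and psaJ. Members of a unit are therefore not independent of each other in the counts above.

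Genes with dimmer signals varied more. In roots the 21 dimmer genes (mean signals 12.31 to 180.3) had a median largest change of 0.90 and a median replicate SD of 0.33, against 0.65 and 0.20 for the 22 brighter ones (192.3 to 1762). The F test called 12 of the dimmer and 18 of the brighter genes in roots. In shoots the 21 dimmer genes had 0.58 and 0.22, against 0.32 and 0.12 for the 22 brighter ones (2101 to 5930), with 5 and 3 past the F test. On each shoot array 8 to 11 of the 43 genes were among the 100 brightest probe sets, and on each root array 0 or 1. Whether bright shoot signals understate changes was not tested.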

How the data were processed

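Tissue, time and replicate of the 28 arrays were read from their titles. The values deposited by the authors are signal intensities on a linear scale, made with MAS5 per the submitters' processing notes (no version is named there), and every array has the same trimmed mean of 100.01 (2% taken off either end), which hides any shift common to most transcripts. Plastid transcripts have no stable poly(A) tail, and how the RNA was primed for labelling is not given in the sources used here.

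From the deposited intensities, log2(signal + 1.93) was computed, the pseudocount being the 10th percentile of all values, which understates changes of dim transcripts. The 64 control probe sets were left out, and probe sets above their array's 30th percentile on both arrays of at least 1 group were kept, 18190 of 22746. A model of 14 group means, with 14 residual degrees of freedom and a trended variance prior, was fitted with limma 3.58.1 (R 4.3.3). Tests were two-sided, with Benjamini-Hochberg adjustment within each contrast at 0.05. The members and lists were chosen with earlier results of these data known.

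Gene names came from the platform annotation (13513 probe sets with 1 gene, 503 with several), and the TAIR10.1 gene table, which holds 13436 of these single genes' probe sets, served for names and gene order only. Few listed nuclear genes had a probe set with 1 gene: 10 of 59 for photosynthesis, 4 of 23 for NDH and cyclic electron flow, 4 of 21 for plastid RNA processing and stability, 1 of 8 for sigma factors and polymerases, 0 of 15 polymerase-associated proteins, and 0 mitochondrial genes. Genes named with full values were, per tissue, the 8 past the F test with the largest change, the 5 largest tissue differences past the interaction test, the 3 largest and 3 smallest root-shoot gaps, the brightest gene of each complex in shoots, psbA, psbD, rbcL, psaA, psaB and listed genes past an F test. Other names, among them psbK at 3 h, petA, ndhA, ndhD and ndhI, were chosen after their values were seen.

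Replicate numbers did not pair the samples: the deviations of same-numbered arrays correlated between -0.583 and 0.197 over 91 pairs of groups (median 0.005). On data simulated for roots at 1 h, with 200 of 18190 probe sets changed, the fit called 66% of 2-fold and 90% of 4-fold changes, with 10 false of 166 calls, and 0 calls for unchanged shoots at 1 h. The simulated noise was independent, with the same spread in all groups. It lacked the looser replicates of shoots at 0.5 h and 1 h, so it cannot tell how safe the calls there are. Alternatives were the pseudocount, the filter, quantile normalization, the replicate block, the arrays in the fit, and each array left out. The fit of roots without 0.25 h and the mean of 0.25 h and 24 h as root reference were added after seeing the data.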

Additional observations from a re-analysis of the deposited data

Results flagged for a closer look

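These results differed between roots and shoots by a test of the difference itself or because the 2 tissues moved in opposite directions. The time course differed between roots and shoots for 20 of the 43 genes in limma's interaction F test (46.5%, against 28.7% of all probe sets tested). The root change exceeded the shoot change for 3 genes at 1 h (1.09% of all probe sets), 6 at 3 h (4.96%), 2 at 6 h (7.92%) and 4 at 12 h (7.2%). At 6 h this was a smaller share of the 43 genes than of all probe sets, and at 12 h a similar one. With quantile normalization the count at 12 h was 0. Among single genes, psbK differed by 0.99 at 1 h, psaA by 1.05 and rbcL by 1.72 at 3 h, and psbM by 0.83 at 12 h, each past the threshold at that time. atpA differed by 1.29 and petN by 1.18 at 3 h, which passed the interaction F test over all times but not the test at that time.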

How the results depend on the processing

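All 43 genes were lower in roots than in shoots in each alternative and with each array left out. Of 1460 values of single named genes under alternatives, 1367 kept their direction and side of the threshold, 80 lost a call, 13 gained one and 0 changed sign. Many of these values come from fits without an array outside the contrast, where the change itself could not move. These totals therefore do not measure how firm a single call is. With 1 array left out, the genes called ranged in roots from 0 to 8 at 0.5 h, 3 to 19 at 1 h, 1 to 8 at 3 h, 1 to 12 at 6 h, 1 to 3 at 12 h and 0 to 3 at 24 h. In shoots they ranged from 0 to 3, 0 to 1, 1 to 5, 0 to 3, 1 to 5 and 0 to 0 at the same times, and for the root minus shoot change from 0 to 1, 0 to 6, 1 to 13, 0 to 5, 0 to 4 and 0 to 2. The F tests ranged from 5 to 9 genes in shoots, 23 to 32 in roots and 12 to 21 for the interaction. Quantile normalization gave 4 genes in roots at 12 h, 1 and 2 in shoots at 0.5 h and 12 h, and 1, 3, 0 and 1 for the difference at 1, 3, 12 and 24 h. Without a pseudocount, and without the filter, 1 gene was called in roots at 12 h and 2 for the difference at 12 h, and the larger pseudocount gave 2 in shoots at 1 h. With only the arrays of the tissue in the fit, 3, 3, 1 and 0 were called in roots at 0.5, 3, 12 and 24 h, and 4, 2, 9, 5 and 7 in shoots at 0.5, 1, 3, 6 and 12 h, with 14 in the shoot F test. When the 4 arrays of shoots at 0.5 h and 1 h were pooled, 3 were called in shoots at these times, 4 in roots at 12 h and 5 for the difference at 1 h, and without them 5 passed the shoot F test. The replicate numbers did not pair the samples. The replicate block gave 18 genes in roots at 1 h (17 of them among the 18 without it), 1 in roots at 12 h and 2 for the difference at 12 h, and moved no other count by over 1.5 times. Against the mean of 0.25 h and 24 h, chosen after seeing the data, 17, 32, 16, 20 and 11 genes were called in roots at 0.5, 1, 3, 6 and 12 h. At 0.5 h 16 of the genes called rose and 1 fell, and at the other times all rose. That reference takes in 24 h, where 26 of the 43 genes had their lowest root mean. The share of all probe sets called against it was not counted, so these counts have no background to be set against. The cause of the shifts in the counts under all these alternatives was not tested. Fits with fewer arrays have fewer residual degrees of freedom, while the fit of only the shoot arrays called more genes in shoots at 0.5 to 12 h.

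Limits: 2 arrays per group and a shared 0.25 h reference mean that single arrays decide many calls. A change shared by most transcripts is hidden by the scaling, dim signals have no stated background, and time of day moves with time after drying.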

Other observations

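ndhB, a membrane subunit of the NDH complex whose probe set covers both plastid copies, had root signals of 13 and 24.54 at 0.25 h, 29.78 and 38.68 at 0.5 h, 26.74 and 34.29 at 1 h, and 29.89 and 21.79 at 24 h. Its shoot signals were 69.56 and 52.36 at 0.25 h, 84.8 and 109.3 at 0.5 h, 102.9 and 69.3 at 1 h, and 52.66 and 61.19 at 24 h. Neither time course passed the F test (adjusted p = 0.32 in roots and 0.082 in shoots).

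Of the 4 measured nuclear genes for NDH and cyclic electron flow, 1 passed the F test in roots (27.6% of all probe sets did) and 3 in shoots (50.4%). NdhS, a nuclear NDH subunit near the ferredoxin binding site, had root signals of 22.74 and 18.66 at 1 h, against 46.21 and 32.45 at 0.25 h, with no overlap. It fell in roots by 0.85 ± 0.20 at 1 h (adjusted p = 0.014). The other listed genes, NdhL, NdhN and PGRL1B, had root changes of 0.51, -0.07 and -0.19 at 1 h, none of them called. PGRL1B, a protein of the other route of cyclic electron flow, had shoot signals of 268.5 and 293.7 at 3 h, against 112.7 and 100.2 at 0.25 h. It rose in shoots by 1.39 ± 0.19 at 3 h (adjusted p = 2.1e-05) and had no call in roots. NdhN also passed the shoot F test (adjusted p = 0.03).

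Among the 10 measured nuclear photosynthesis genes, 2 passed the shoot F test (20%, against 50.4% of all probe sets tested). These were LHCB4.3 and LHCB4.2, minor antenna proteins of photosystem II. LHCB4.3 had shoot signals of 233.5 and 265 at 6 h and 1259 and 1148 at 12 h, against 739.6 and 628.2 at 0.25 h, and fell by 1.45 ± 0.27 at 6 h and rose by 0.82 ± 0.27 at 12 h (adjusted p = 0.00037 and 0.033). LHCB4.2 fell by 1.33 ± 0.34 at 12 h (adjusted p = 0.007). The RNA stability protein PPR10 is known from maize, and its Arabidopsis locus AT2G18940 had shoot signals of 139.6 and 138.4 at 12 h, against 87.26 and 91.72 at 0.25 h. AT2G18940 rose by 0.63 ± 0.19 at 12 h (adjusted p = 0.019). AT5G15700, a phage-type organelle RNA polymerase, had low shoot signals of 8.297 and 6.846 at 24 h, against 17.78 and 23.48 at 0.25 h, and fell by 1.24 ± 0.35 (adjusted p = 0.029). These genes were taken from the lists because they passed an F test.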
